A study of Rattus norvegicus with 6 samples.

Results

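The genes described here are the components, receptors and regulators of the complement system, taken from a table of read counts of 33509 rat genes in 6 heart libraries. They were chosen by symbol: 36 of 37 listed symbols were in the table, as 38 gene records, because C4a and C2 each had 2 records. C5 had no row under that symbol; the row Hc, which is the mouse name of C5, held 1, 3 and 0 counts in XHT 1, 2 and 3 and 5, 4 and 0 counts in MOD 1, 2 and 3.

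Complement is a set of plasma and membrane proteins that tags cells and debris for removal. Its classical route starts with C1q bound to antibody, dying cells or matrix, its lectin route with sugar-binding proteins and the MASP proteases, and its alternative route with C3 itself, amplified by factors B and D and properdin. All routes cleave C3 and C5, releasing the small peptides C3a and C5a that act on receptors of leukocytes, and end in a pore made of the terminal components. Host cells carry inhibitors against this attack. Infarcted heart muscle is a known site of complement deposition, and most plasma complement is made in the liver while C1q is made mainly by macrophages.

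RNA-seq was made from myocardial tissue of Sprague-Dawley rats. The XHT group (XHT 1, 2 and 3) was a rat model of acute myocardial infarction given XHT, an agent that the labels name by these letters only and whose series title names Xinhuitong. The MOD group (MOD 1, 2 and 3) was the same infarction model without it, so both groups carry the infarction and no uninjured heart was analysed here. The labels used here give no dose, time after infarction, sex, age or part of the heart, and do not say that each library came from a separate animal, so p-values measure only the spread between these libraries.

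The libraries held 16550007 to 17724689 counts, and 14488 genes had enough counts to test. Expression is given as CPM, read counts relative to library size, with library sizes scaled by the trimmed mean of M values (TMM). TMM used factors of 0.871, 0.918 and 0.830 in XHT 1, 2 and 3 and 1.12, 1.22 and 1.10 in MOD 1, 2 and 3. Heart muscle markers were present in every library, but at uneven levels: 8 cardiomyocyte genes summed to 64717, 39054 and 61209.6 CPM in XHT 1, 2 and 3 and to 2569, 2273 and 26766 CPM in MOD 1, 2 and 3. MOD 3 thus stood apart from MOD 1 and MOD 2. In the opposite direction, 8 fibroblast genes summed to 1966 to 4829 CPM in XHT and 22346 to 61689 CPM in MOD, and 10 macrophage genes to 587 to 811 CPM in XHT and 1627 to 3029 CPM in MOD. Most of the fibroblast sums in MOD came from the collagen genes Col1a1 and Col3a1. Tcf21, another fibroblast gene, had 33.6 to 39.7 CPM in XHT and 33.2 to 52.8 CPM in MOD. In bulk tissue, fewer cells of a type and less RNA per cell cannot be told apart.

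The complement genes moved in both directions. By the quasi-likelihood test of edgeR, with p-values adjusted over all genes by the Benjamini-Hochberg method and a threshold of 0.05, C1qa, C4a, C4b, C2, Cfp, C7, C3ar1 and C5ar1 were lower in XHT than in MOD, and C5ar2, Cd55, Cd59 and C1qbp were higher. Those that fell were activating components and receptors for C3a and C5a, and those that rose were the other C5a receptor, inhibitors of the membrane and a C1q-binding protein. This describes the called records only. The membrane inhibitors Cr1l and Cd46 were not called, and Susd4, a membrane inhibitor outside the list, was lower, with a log2 fold change of -3.51. The protease gene Masp1, at 2.04, leaned higher without a call. Of the 31 records that could be tested, 12 were called, with 28.5% called over all genes; 8 were lower, with 16.1% of all genes lower, and 4 were higher, with 12.4% of all genes higher. The median log2 fold change, XHT over MOD, was -0.26 over the 31 records and -0.02 over all genes tested. CPM values did not overlap between the groups for 18 of the 31 records, with 51.3% over all genes: 7 had every XHT library above every MOD library (24.7% of all genes) and 11 had every XHT library below (26.6% of all genes).

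**Figure D1:**
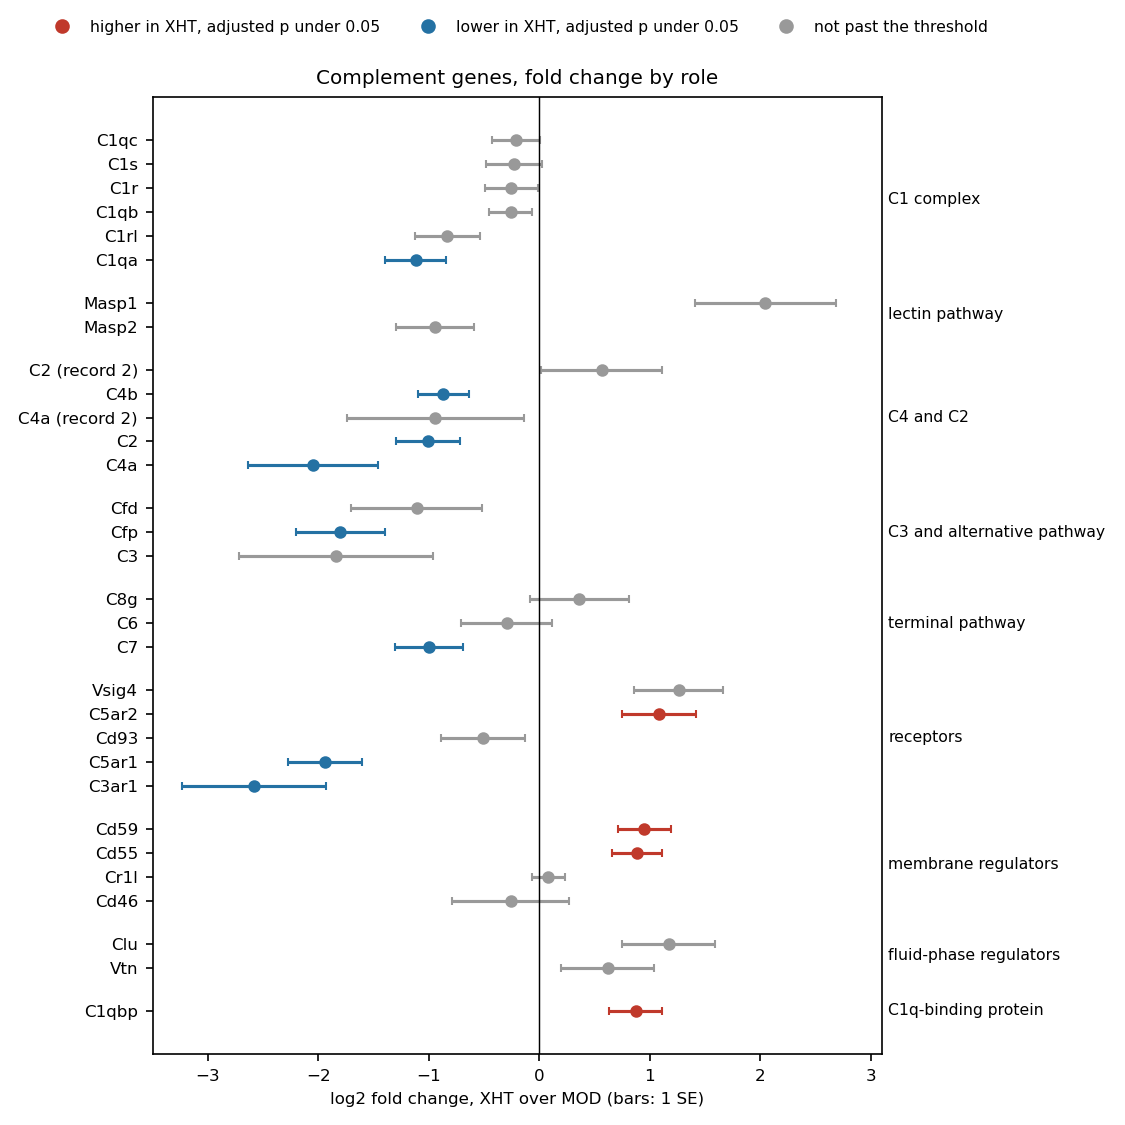
Log2 fold change of each of the 31 tested complement records, XHT over MOD, grouped by role, with bars of 1 standard error from edgeR; red marks the 4 records called higher in XHT, blue the 8 called lower and grey the rest. Lower calls lie among C1, C4 and C2, properdin, C7 and the C3a and C5a receptors, and higher calls among C5ar2, Cd55, Cd59 and C1qbp.

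These counts, like those over all genes, rested on particular libraries and on the scaling. Without XHT 1, XHT 3 or MOD 1, 0 complement records were called by edgeR at an adjusted p under 0.05. In those 3 fits 14, 12 and 14 records had an unadjusted p under 0.05. Over all genes the same fits called only 8, 436 and 503, against 4128 with all 6 libraries. Without MOD 2, C5ar2 was the 1 higher and C5ar1 the 1 lower call, with 797 called over all genes. Without MOD 3, 6 were higher and 11 lower, with 6908 called over all genes. Without XHT 2, 2 were higher and 9 lower, with 3607 called over all genes. With scaling to total counts alone, which shifted the median of all genes to -0.42 on the log2 scale, 0 records were higher and 11 lower (16 had an unadjusted p under 0.05), while over all genes 925 were higher and 4320 lower, against 1792 and 2336 with TMM scaling. DESeq2's Wald test called 7 higher and 8 lower, and its 15 calls included all 12 of edgeR's. Over all genes it called 5461, against 4128 by edgeR.

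**Figure D2:**
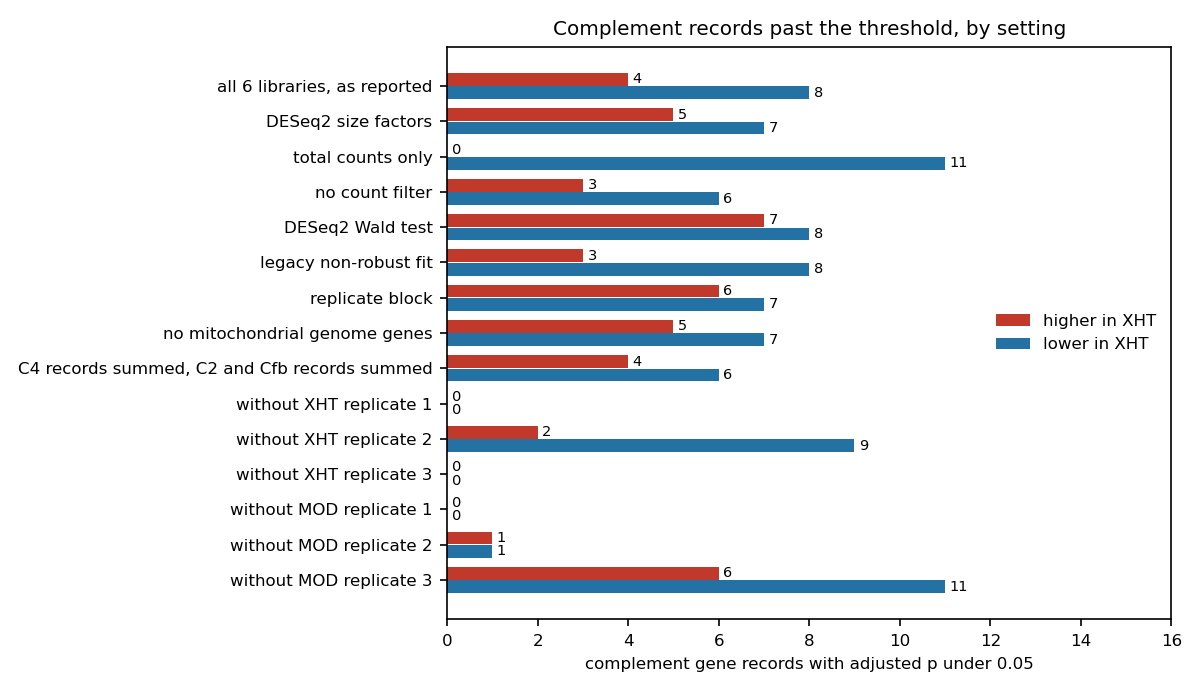
Number of complement records called higher (red) and lower (blue) in XHT with all 6 libraries and under each alternative setting, at an adjusted p under 0.05. The numbers at the bar ends show 0 calls without XHT 1, XHT 3 or MOD 1 and the most calls, 6 higher and 11 lower, without MOD 3. Over all genes those fits called 8, 436, 503 and 6908.

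Levels can be set side by side between genes only per length, in FPKM. The authors' FPKM values put Clu, which encodes clusterin, on top in XHT, at 530.4 ± 102 FPKM, and C7, a pore component, on top in MOD, at 359 ± 46.4 FPKM (SD, n = 3 each), although in MOD 3 Clu was above C7, at 368 against 352 FPKM. In XHT, Cd59 followed at 227 ± 30.6 FPKM and C7 at 184 ± 49.5 FPKM, 2 levels that lie within their spread of each other. In MOD, Clu at 229.8 ± 120.1 FPKM was not apart from C7 by more than their spread, and Clu, C1qa at 196 ± 42.5 and C1qc at 186 ± 16.5 FPKM were likewise not apart from each other. Cd59, the inhibitor of the pore, ranked 2 of the 38 records in XHT and 8 in MOD, and C1qa ranked 9 in XHT and 3 in MOD. C3, the central component, stood at only 0.894 ± 0.594 FPKM in XHT and 3.15 ± 3.49 FPKM in MOD. Summed over all 38 records, complement stood at 3637 ± 466 CPM in XHT and 3718 ± 129 CPM in MOD (SD, n = 3 each), a difference within the spread of the libraries. This sum is not scaled by gene length and mixes opposite shifts. The fluid-phase regulators summed to 1064 ± 198 CPM in XHT and 488 ± 259 CPM in MOD. The terminal pathway summed to 488 ± 133 CPM in XHT and 959 ± 118 CPM in MOD.

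**Figure D3:**
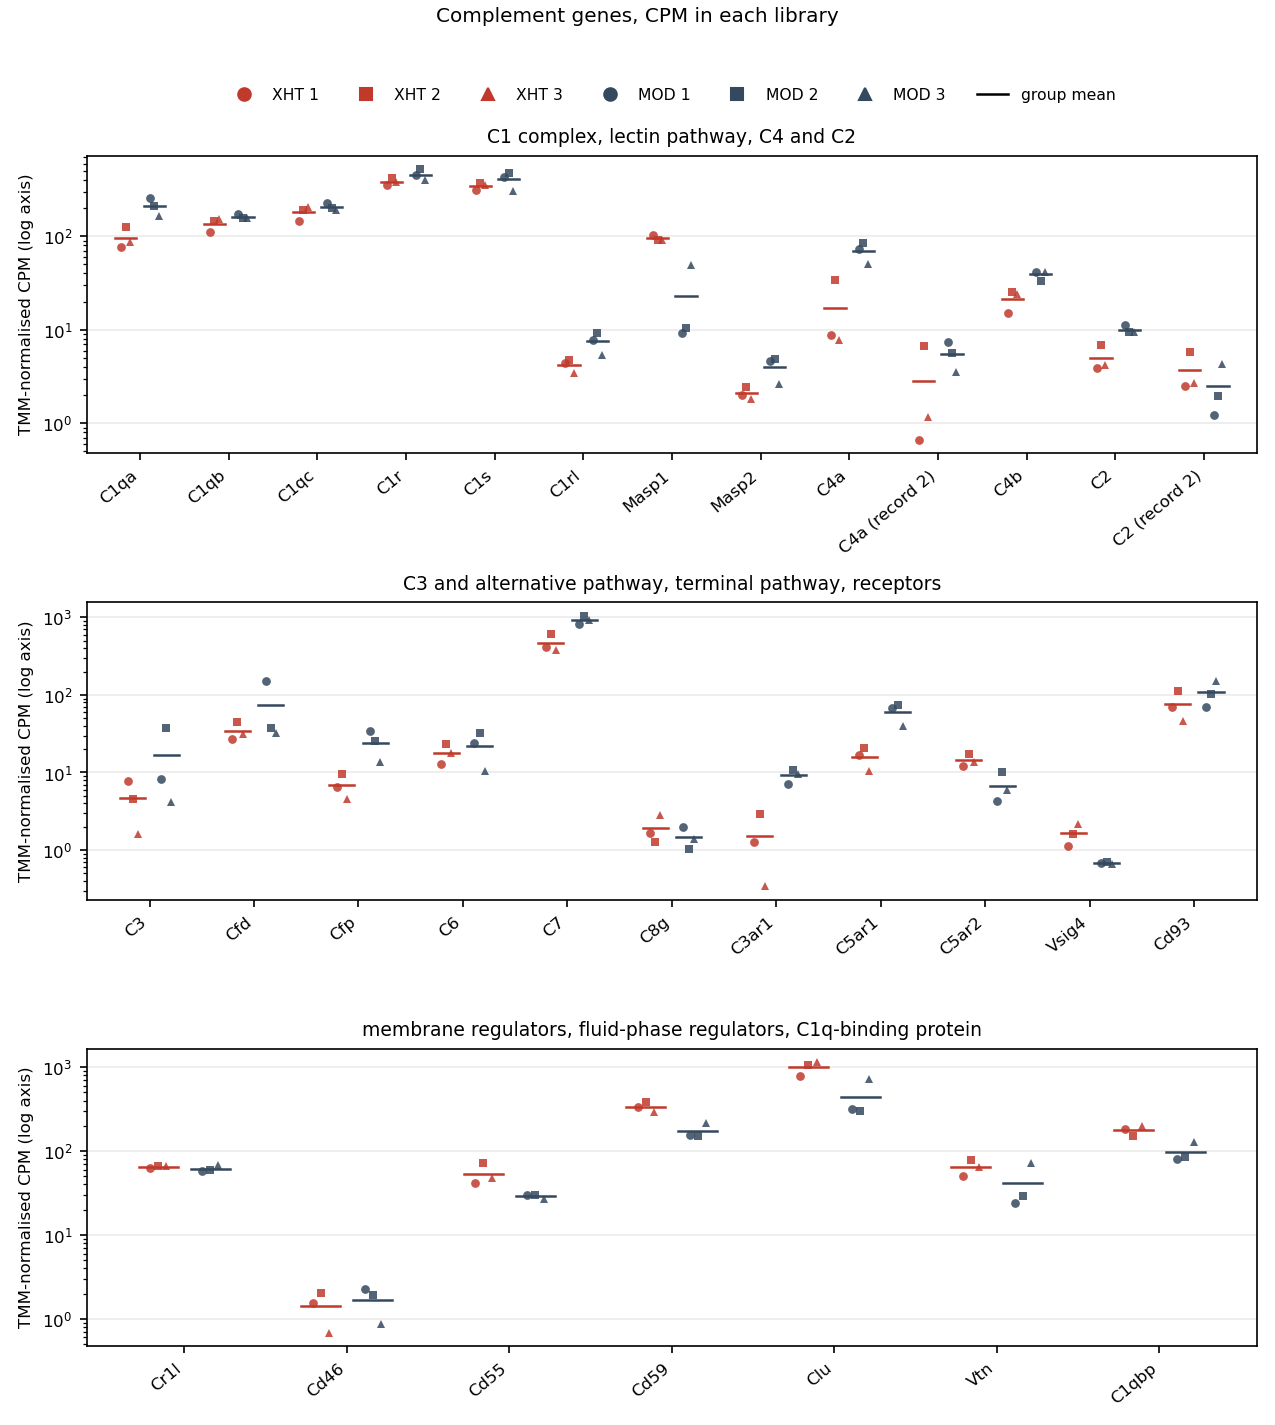
TMM-normalised CPM (log axis) of the 31 tested complement records in each library, XHT in red and MOD in dark blue, with circles, squares and triangles for libraries 1, 2 and 3 and a line at each group mean. Masp1 in MOD 3 and Cfd in MOD 1 sit far above the other MOD libraries, while the XHT libraries of both genes lie close together.

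C1 is made of C1q, which recognises the target and is built from A, B and C chains, and of the proteases C1r and C1s. Of the 6 genes of this group 1 fell, with 16.1% lower over all genes: C1qa, the A chain. It had 77.3, 127 and 85.9 CPM in XHT 1, 2 and 3 and 256, 210.3 and 165 CPM in MOD 1, 2 and 3. The groups did not overlap, MOD 1 was highest and XHT 1 lowest, and the log2 fold change was -1.12 ± 0.27 (SE; edgeR adjusted p = 0.0267). The call was lost without XHT 1, XHT 3, MOD 1 or MOD 2, where the edgeR adjusted p was 0.0778 to 0.102.

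C1qb, the B chain, had 112, 144 and 152 CPM in XHT and 173, 157 and 158 CPM in MOD, which do not overlap but lie close. Its log2 fold change of -0.26 ± 0.20 did not pass edgeR's test (adjusted p = 0.331). C1qc, the C chain, had 144, 191 and 205 CPM in XHT and 229, 202 and 193 CPM in MOD, with XHT 3 above MOD 2 and MOD 3. Its log2 fold change was -0.21 ± 0.22 (edgeR adjusted p = 0.473).

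Shares and ratios within a library do not depend on scaling between libraries. C1qa took 23.2, 27.5 and 19.4% of the counts of the 3 chains in XHT 1, 2 and 3 and 38.9, 37 and 31.9% in MOD 1, 2 and 3. The ratio of C1qa to the other chains differed by -0.89 on the log2 scale between XHT and MOD, with no overlap, whereas the ratio of C1qb to C1qc differed by -0.05. An exact two-sided permutation test gave p = 0.1 for the C1qa ratio, the smallest that 3 against 3 libraries can give, so this test could not pass a threshold of 0.05, and p = 0.4 for C1qb to C1qc. Over the 4 ratios of this kind, all chosen after their values were seen, the adjusted p-values were 0.133 and 0.4.

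The genes of the chains lie next to each other on rat chromosome 5, on the same strand, which is why the 250 bases before the start of the chain that fell and of a chain that did not pass the test are shown. They are from RefSeq, build GRCr8, at chr5:154419934-154420183 for C1qa and chr5:154407828-154408077 for C1qb, both on the minus strand, 5′ to 3′. Capitals mark GAGGAA or its reverse complement TTCCTC, the box known to be bound by PU.1, a factor of macrophage genes.
C1qa: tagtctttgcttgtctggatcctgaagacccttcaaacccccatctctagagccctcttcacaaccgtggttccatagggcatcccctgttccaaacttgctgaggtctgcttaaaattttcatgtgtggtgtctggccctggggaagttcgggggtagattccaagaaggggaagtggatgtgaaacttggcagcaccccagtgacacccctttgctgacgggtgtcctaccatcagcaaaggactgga
C1qb: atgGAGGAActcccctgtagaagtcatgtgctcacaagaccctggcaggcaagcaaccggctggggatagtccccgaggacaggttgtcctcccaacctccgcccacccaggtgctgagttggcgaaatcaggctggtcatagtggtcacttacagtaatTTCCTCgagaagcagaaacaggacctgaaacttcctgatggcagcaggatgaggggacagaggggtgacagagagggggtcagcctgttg
C1qb has 2 matches and C1qa none in these letters. Of the 37 listed genes, 25 had a promoter entry. The box was on either strand in 6 of those: C1qb, C1r, C4b, C4bpb, C5ar2 and Cfp. Over all 33469 promoters, each searched over 250 upstream bases, it was in 23.3%. TATAAA was in 1 of the 25, that of Cr1l, and in 12.9% of all promoters. A match is a description of letters and not of binding, and its part in the levels was not tested.

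The C1 proteases did not pass the test. C1r had 351, 417 and 382 CPM in XHT and 449.9, 522 and 397 CPM in MOD, and C1s had 311, 372 and 357 CPM in XHT and 431, 479 and 308 CPM in MOD, so the groups overlapped for both. Their log2 fold changes were -0.25 ± 0.24 and -0.23 ± 0.26 (edgeR adjusted p = 0.435 and 0.517). C1rl, a C1r-like protease with far fewer reads, had 4.39, 4.77 and 3.47 CPM in XHT and 7.85, 9.29 and 5.40 CPM in MOD, without overlap. At a log2 fold change of -0.83 ± 0.29 it did not pass either (edgeR adjusted p = 0.0686).

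The C1q chains are set beside macrophage markers because macrophages are their main known source. Of 10 markers all were tested, 6 were lower in XHT (Lyz2, Cd68, Aif1, Fcgr1a, Adgre1 and Csf1r), 1 was higher (Cd163) and 0 were at 0 in all libraries. Over all genes, 16.1% were lower and 12.4% higher. The mean log2 CPM of the chains exceeded that of the markers by 2.01, 2.03 and 2.24 in XHT 1, 2 and 3 and by 1.25, 1.24 and 1.41 in MOD 1, 2 and 3, a difference of 0.80 between group means. The chains thus lay higher relative to the mean of the 10 markers in every XHT library than in any MOD library. For C1qa alone this difference was 0.21, for C1qb 1.07 and for C1qc 1.12. The size depended on the markers, at 0.49 over Csf1r, Adgre1 and Mertk and 1.32 for summed CPM. Against single markers the sign depended on them too. Cd163 and Mertk had log2 fold changes of 1.01 and 0.17, above those of all 3 chains. Relative to either of these, the chains were lower in XHT. Mrc1, at -0.37, lay above C1qa and below C1qb and C1qc. The part of macrophage number in the C1q levels was not tested.

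The lectin proteases moved in opposite directions without passing the test. Masp1, whose products in humans also include an inhibitor, MAp44, that is abundant in heart, had 104, 90.4 and 92.1 CPM in XHT 1, 2 and 3 and 9.27, 10.3 and 49.7 CPM in MOD 1, 2 and 3. All XHT libraries were above all MOD libraries, and MOD 3 was far above MOD 1 and MOD 2. At a log2 fold change of 2.04 ± 0.64, the edgeR adjusted p was 0.0501; over 14 alternatives the adjusted p ran between 0.000205, without MOD 3, and 0.127, and it was under 0.05 in 5 of them. Without MOD 3 the log2 fold change was 3.30. Gene counts do not tell apart the protease forms and MAp44.

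Masp2, the protease that cleaves C4 and C2, was scarce: 1.99, 2.45 and 1.84 CPM in XHT and 4.64, 4.84 and 2.62 CPM in MOD. XHT was below MOD in every library, with a log2 fold change of -0.94 ± 0.35 (edgeR adjusted p = 0.0785). Counts of Masp1 were 52.0, 36.9 and 50.1 times those of Masp2 in XHT 1, 2 and 3 and 2.00, 2.13 and 19 times in MOD 1, 2 and 3. On the log2 scale this ratio differed by 3.41 (exact two-sided permutation p = 0.1, adjusted over the 4 ratios 0.133), and by 4.47 without MOD 3. Like Masp1, the cardiomyocyte marker sum was higher in XHT than in MOD and was highest within MOD in MOD 3, at 26766 CPM; the part of muscle RNA in the Masp1 value was not tested. None of the 8 cardiomyocyte markers was at 0 in all libraries, and 1 of the 8, Ryr2, was called higher in XHT.

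**Figure D4:**
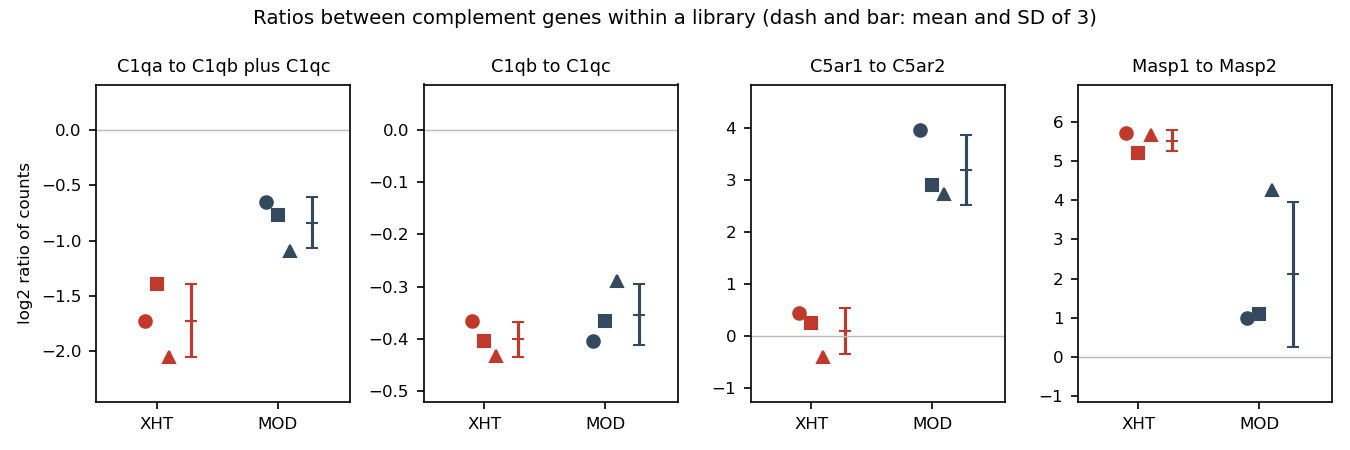
Log2 ratio of counts between complement genes within each library, for C1qa to C1qb plus C1qc, C1qb to C1qc, C5ar1 to C5ar2 and Masp1 to Masp2, with circles, squares and triangles for libraries 1, 2 and 3 and the mean and SD of 3 libraries beside them. XHT and MOD are apart in all panels but C1qb to C1qc, whose axis spans a much smaller range.

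C4 and C2 form the convertase that the classical and lectin routes share. Of 5 records 3 fell, with 16.1% of all genes lower, but these records overlap in position, as described below. C4a stood at 8.71, 34.2 and 7.76 CPM in XHT and at 73.5, 85.6 and 50.6 CPM in MOD, so XHT 2 was closest to MOD but still below it. For C4a the log2 fold change was -2.05 ± 0.58 (edgeR adjusted p = 0.0400; 0.0604 without a count filter), and -3.07 without XHT 2. C4b had 15.1, 25.2 and 24.0 CPM in XHT and 41.9, 33.6 and 41.9 CPM in MOD, with no overlap and a log2 fold change of -0.87 ± 0.23 (edgeR adjusted p = 0.0337).

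C2, the protease subunit, had 3.86, 6.84 and 4.22 CPM in XHT and 11.3, 9.39 and 9.36 CPM in MOD. XHT was below MOD throughout, with a log2 fold change of -1.01 ± 0.29 (edgeR adjusted p = 0.0396). Without XHT 1, XHT 3, MOD 1 or MOD 2 none of these 3 calls held: the edgeR adjusted p was 0.106 to 0.119 for C4a, 0.0716 to 0.109 for C4b and 0.101 to 0.131 for C2.

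The C4 and C2 records are uncertain because they share sequence or position. In the coordinates of the deposited table, for which the sources used here name no build, the larger C4a record spans 4302347 to 4508214 on chromosome 20 and covers the C4b record, at 4302344 to 4316715 on the same strand, but for the outermost bases of C4b. The smaller C4a record, at 2651599 to 2678141, had 0.665, 6.72 and 1.157 CPM in XHT and 7.38, 5.58 and 3.50 CPM in MOD. XHT 2 overlapped MOD there, and the log2 fold change was -0.94 ± 0.80 (edgeR adjusted p = 0.389). With the 3 C4 records summed, an alternative chosen after seeing the data, the log2 fold change was -1.48 (edgeR adjusted p = 0.0281).

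How alike the 2 C4 genes are before their start is shown by their 250 upstream bases from RefSeq, build GRCr8, at chr20:4010107-4010356 for C4a and chr20:4201729-4201978 for C4b, both on the plus strand of that build, 5′ to 3′. Capitals mark bases that differ from, or are missing in, the aligned copy.
C4a: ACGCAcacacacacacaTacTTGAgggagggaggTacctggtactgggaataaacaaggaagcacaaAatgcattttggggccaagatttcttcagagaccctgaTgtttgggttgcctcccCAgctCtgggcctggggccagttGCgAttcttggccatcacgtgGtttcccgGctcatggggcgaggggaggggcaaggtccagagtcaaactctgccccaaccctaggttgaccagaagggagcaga
C4b: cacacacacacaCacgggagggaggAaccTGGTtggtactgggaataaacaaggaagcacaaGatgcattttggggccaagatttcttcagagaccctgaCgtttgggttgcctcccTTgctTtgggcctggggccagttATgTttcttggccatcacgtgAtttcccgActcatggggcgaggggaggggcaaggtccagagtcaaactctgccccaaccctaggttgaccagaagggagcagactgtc
Over 291 aligned bases of the 300-base windows, 279 were identical, which is 95.9%.

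C2 has a similar limit. Its smaller record, at 4536203 to 4542947 on chromosome 20, had 2.53, 5.78 and 2.72 CPM in XHT and 1.21, 1.98 and 4.27 CPM in MOD, with overlap and a log2 fold change of 0.56 ± 0.55 (edgeR adjusted p = 0.453). Cfb, which encodes factor B, the C2 counterpart of the alternative route, is annotated from 4536263 to 4561062 across both C2 records on the same strand, and it had 0 counts in all 6 libraries. In RefSeq the genes run in the order C2, Cfb, Nelfe, C4a, so the smaller C2 record lies where Cfb is in that order. A level of 0 for Cfb in this table therefore says nothing firm about factor B. With the C2 and Cfb records summed, the log2 fold change was -0.53 and the call was lost (edgeR adjusted p = 0.204). As this sum may add reads of Cfb to those of C2, it cannot show whether C2 alone fell.

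Of the other genes of the alternative route, Cfp fell. It encodes properdin, which stabilises the C3 convertase and is made by leukocytes. Cfp stood at 6.58, 9.67 and 4.56 CPM in XHT and at 33.9, 25.2 and 13.5 CPM in MOD, without overlap and with MOD 3 the lowest of its group. This is a log2 fold change of -1.80 ± 0.40 (edgeR adjusted p = 0.0224), and without XHT 1, XHT 3, MOD 1 or MOD 2 the adjusted p was 0.0648 to 0.0849.

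C3 had 7.84, 4.52 and 1.63 CPM in XHT and 8.22, 37.7 and 4.12 CPM in MOD. MOD 2 alone was high, and the other MOD libraries lay within or close to the XHT range. The log2 fold change of -1.84 ± 0.88 did not pass edgeR's test (adjusted p = 0.146) and was -0.40 without MOD 2. Ptx3, a secreted pentraxin that binds C1q and is known to be induced in inflammation, was also highest in MOD 2, at 94.6 CPM.

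Cfd encodes factor D, the protease that activates factor B, also named adipsin for its source in fat cells. It had 27.4, 44.5 and 31.0 CPM in XHT 1, 2 and 3 and 153, 37.6 and 31.9 CPM in MOD 1, 2 and 3. MOD 1 was far above all other libraries, which overlapped. The log2 fold change was -1.11 ± 0.59 (edgeR adjusted p = 0.185), and -0.02 without MOD 1. MOD 1 also held 28.1 CPM of Adipoq, 14.9 of Retn, 12 of Plin1 and 11 of Cidec, fat cell genes that were at 0.942 CPM or less in every other library. Over the whole list of 7 fat cell markers, which includes Fabp4, a gene that endothelium also uses, the sums were 617 to 1515 CPM in XHT and 397 to 976 CPM in MOD. The annotated interval of Cfd lies within that of Hmha1 on the same strand, so its reads may be shared.

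In the terminal pathway, which builds the membrane pore, C7 fell, and C8a, C8b and C9 were nearly absent. C7 had 411, 616 and 378 CPM in XHT and 829, 1055 and 923 CPM in MOD, without overlap. The difference, a log2 fold change of -1.0 ± 0.31, had an edgeR adjusted p of 0.0499, at the very edge of the threshold. The edgeR adjusted p was 0.0505 to 0.0553 with DESeq2 size factors, without a count filter, without genes of the mitochondrial genome or with the library number as a block. It was 0.108 to 0.164 without XHT 1, XHT 3, MOD 1 or MOD 2. Of 14 alternatives, 6 gave an adjusted p under 0.05, the lowest being 0.00237 by DESeq2's Wald test.

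C6, the neighbour of C7 in the pore, had 12.9, 23.1 and 18.0 CPM in XHT and 24.0, 31.9 and 10.4 CPM in MOD. The groups overlapped, MOD 3 was lowest, and the log2 fold change of -0.30 ± 0.41 (edgeR adjusted p = 0.599) turned to 0.07 without MOD 2. C8g, the gamma chain of C8, had 1.26 to 2.79 CPM in XHT and 1.04 to 2.00 CPM in MOD, with a log2 fold change of 0.36 ± 0.44 (edgeR adjusted p = 0.552) that was -0.03 with scaling to total counts and about 0 without XHT 3. Its record also overlaps Fbxw5 on the other strand.

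C8a and C8b, the other chains of C8, had 0 counts in all 6 libraries, which allows up to 3 counts each, or 0.148 to 0.204 CPM; this limit covers counting error only. C9, the ring-forming component, had 0 counts in each XHT library and 3, 8 and 1 counts in MOD 1, 2 and 3. Of 8 liver cell markers, Ahsg, Apob and Fga were at 0 in all libraries, 6 had under 10 counts in all, and Ttr was the 1 that could be tested.

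The receptors for the cleavage peptides fell with an exception. C5ar1, the receptor by which C5a attracts and activates neutrophils and macrophages, had 16.6, 20.4 and 10.3 CPM in XHT and 67.5, 74.7 and 39.5 CPM in MOD. Every XHT library was below every MOD library, and the log2 fold change was -1.94 ± 0.33 (edgeR adjusted p = 0.0133). It was the lower call that survived the loss of MOD 2 (0.0444), but not that of XHT 1, XHT 3 or MOD 1 (edgeR adjusted p = 0.0519 to 0.0629). C3ar1, the receptor for C3a, had 1.26, 2.95 and 0.340 CPM in XHT and 7.01, 10.8 and 9.67 CPM in MOD, also without overlap. Its log2 fold change was -2.58 ± 0.65 (edgeR adjusted p = 0.0291), and -3.49 without XHT 2. Without XHT 1, XHT 3, MOD 1 or MOD 2 the edgeR adjusted p of C3ar1 was 0.0598 to 0.105.

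C5ar2 rose. It encodes a C5a receptor that does not couple to G proteins, and its gene lies beside C5ar1 on chromosome 1. It had 12.2, 17.1 and 13.7 CPM in XHT and 4.32, 10.03 and 5.97 CPM in MOD, with XHT above MOD throughout but MOD 2 near to XHT 1. This is a log2 fold change of 1.08 ± 0.34 (edgeR adjusted p = 0.0498). The call was lost without any library but MOD 2 (edgeR adjusted p = 0.0618 to 0.136), with scaling to total counts (0.183), without a count filter (0.0501) and in a non-robust fit (0.0518). The count of C5ar1 was 1.36, 1.19 and 0.756 times that of C5ar2 in XHT 1, 2 and 3 and 15.6, 7.45 and 6.62 times in MOD 1, 2 and 3. On the log2 scale the ratio differed by -3.10 (exact two-sided permutation p = 0.1, adjusted over the 4 ratios 0.133), and by -2.72 to -3.34 with any 1 library left out.

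Vsig4, the receptor of resident macrophages for C3 fragments, had 1.13, 1.63 and 2.18 CPM in XHT and 0.685, 0.692 and 0.669 CPM in MOD, without overlap. Its log2 fold change of 1.26 ± 0.40 did not pass edgeR's test (adjusted p = 0.0540). Cd93, once named a C1q receptor and known from endothelium, had 69.8, 111 and 46.6 CPM in XHT and 70.1, 103 and 151 CPM in MOD. The groups overlapped (log2 fold change -0.51 ± 0.38, edgeR adjusted p = 0.332). Neutrophil markers, whose cells also carry C5ar1, summed to 37.6 to 146 CPM in XHT and 17.7 to 83.5 CPM in MOD, none of the 7 was at 0 in all libraries, and the 6 that were tested had edgeR adjusted p-values of 0.084 to 0.903; their part in the receptor values, like that of the macrophage markers, was not tested.

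Of the 4 membrane regulators, which protect host cells, 2 rose, with 12.4% of all genes higher. Cd55, which speeds the decay of the convertases, had 42.0, 71.1 and 47.1 CPM in XHT and 29.8, 30.2 and 26.7 CPM in MOD, without overlap. For Cd55 the log2 fold change was 0.88 ± 0.22 (edgeR adjusted p = 0.0294). Cd59, which blocks the pore, had 333, 389.5 and 294 CPM in XHT and 157, 152 and 217 CPM in MOD, without overlap and with MOD 3 the highest of its group. For Cd59 it was 0.95 ± 0.24 (edgeR adjusted p = 0.0300). With scaling to total counts the log2 fold changes were 0.50 for Cd55 and 0.57 for Cd59, and neither passed (edgeR adjusted p = 0.152 and 0.105). Without XHT 1, XHT 3, MOD 1 or MOD 2 the edgeR adjusted p was 0.0640 to 0.0924 for Cd55 and 0.0704 to 0.113 for Cd59, whose call was also lost without XHT 2 (0.0616).

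Cr1l, the rodent regulator also named Crry, had 63.2, 66.4 and 66.3 CPM in XHT and 58.3, 58.7 and 67.9 CPM in MOD. The groups overlapped, with MOD 3 highest, and its log2 fold change of 0.08 ± 0.15 (edgeR adjusted p = 0.687) was -0.31 with scaling to total counts. Cd46, a cofactor for factor I that in mice is known mainly from testis, had 1.53, 2.01 and 0.680 CPM in XHT and 2.27, 1.93 and 0.875 CPM in MOD. The groups overlapped (log2 fold change -0.26 ± 0.53, edgeR adjusted p = 0.729), and the sign turned without XHT 3 or MOD 1.

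Among the regulators of the fluid phase, clusterin was the most abundant. Clu, which binds the terminal complex and keeps it out of membranes, had 788, 1058 and 1149 CPM in XHT and 317, 301 and 714 CPM in MOD. Every XHT library was above every MOD library, but MOD 3 came close to XHT 1. The log2 fold change of 1.17 ± 0.42 did not pass edgeR's test (adjusted p = 0.0726) and passed without MOD 3 (log2 fold change 1.71, adjusted p = 0.00208). In the authors' deposited table Clu was higher in XHT at an adjusted p of 0.0128 and Masp1 at 0.00411. Vtn, which encodes vitronectin, another inhibitor of the pore, had 50.3, 78.3 and 64.8 CPM in XHT and 23.9, 29.1 and 72.8 CPM in MOD. MOD 3 lay within the XHT range, and the log2 fold change of 0.62 ± 0.42 (edgeR adjusted p = 0.287) was 1.297 without MOD 3 (edgeR adjusted p = 0.00413).

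The regulators Cfi, C4bpa and C4bpb had few counts. Cfi, which encodes factor I, the protease that inactivates C3b and C4b, had 3, 6 and 9 counts in XHT 1, 2 and 3 and 97, 26 and 5 counts in MOD 1, 2 and 3, and did not reach the count filter. The groups overlapped, with MOD 3 below XHT 2 and XHT 3. C4bpa and C4bpb, the chains of the C4b-binding protein, had 0 to 2 and 5 to 13 counts per XHT library and 0 to 4 and 2 to 7 counts per MOD library.

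C1qbp rose. Its product binds the globular heads of C1q in vitro and resides mainly in mitochondria. It had 181, 152 and 200.3 CPM in XHT 1, 2 and 3 and 80.8, 83.8 and 127 CPM in MOD 1, 2 and 3, without overlap and with MOD 3 nearest to XHT. Its log2 fold change was 0.87 ± 0.24 (edgeR adjusted p = 0.0372), and 0.48 with scaling to total counts (edgeR adjusted p = 0.127). The call was lost without XHT 1, XHT 3, MOD 1 or MOD 2 (0.107 to 0.132). Genes of the mitochondrial genome took 27.4, 29.8 and 27.1% of the counts in XHT and 22.9, 15.6 and 22.8% in MOD, and their part in the C1qbp value was not tested.

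**Figure D5:**
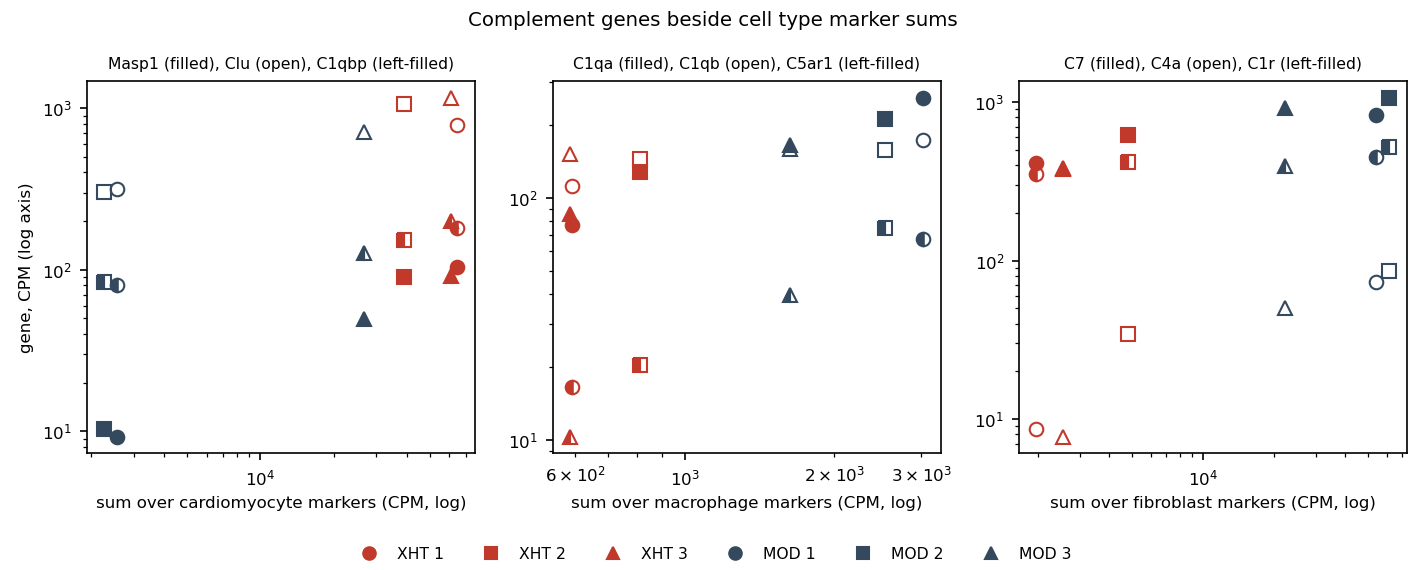
CPM of complement genes (log axis) against the summed CPM of cell type markers (log axis) in each library: Masp1, Clu and C1qbp against cardiomyocyte markers, C1qa, C1qb and C5ar1 against macrophage markers, and C7, C4a and C1r against fibroblast markers. XHT is red and MOD dark blue, with circles, squares and triangles for libraries 1, 2 and 3; MOD 3 lies between the other MOD libraries and XHT on all horizontal axes, and C1qb and C1r differ little across them.

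Marker sums are set beside the genes above because the tissue differed in them. Clu, Cd59, C1qbp and Masp1 shared the order of the cardiomyocyte sums between groups, with MOD 3 the highest MOD library for each. Cd55 and C5ar2, also called higher, did not share the order within MOD. Cd55 was lowest in MOD 3, at 26.7 CPM, and C5ar2 was highest in MOD 2, at 10.03 CPM. Within XHT, the cardiomyocyte sum was lowest in XHT 2, at 39054 CPM. Masp1 and C1qbp were also lowest there, while Cd59 was highest there and Clu was lowest in XHT 1. Of the 8 fibroblast markers, whose cells are a known source of C1r, C1s and C7, 6 were lower in XHT and 0 were at 0 in all libraries. Over all genes 16.1% were lower. The 6 were Col1a1, Col3a1, Postn, Lum, Dpt and Pdgfra, with log2 fold changes between -6.63 and -0.74. Dcn and Tcf21, at -0.57 and -0.35, did not pass the test (edgeR adjusted p = 0.278 and 0.234). C1r and C1s, at -0.25 and -0.23, did not pass either. C4a and C7 were lower in XHT, as were those 6 fibroblast markers. Within MOD, the fibroblast sum was lowest in MOD 3, at 22346 CPM. C4a was also lowest there, at 50.6 CPM, whereas C7 had 923 CPM in MOD 3 and 829 CPM in MOD 1. Endothelial markers summed to 1456 to 1648 CPM in XHT and 1025 to 1827 CPM in MOD, with 1 of 7 tested, Emcn, lower. The 6 mesothelial markers summed to 27.1, 92.5 and 50.4 CPM in XHT 1, 2 and 3 and to 53.5 to 64.6 CPM in MOD. Of these, 4 were tested and 0 were called. Msln was at 29.3 CPM in XHT 2, the XHT library with the most C4a. It was at 0.266 and 0.204 CPM in XHT 1 and XHT 3, and at 6.89 to 33.4 CPM in MOD. Upk1b differed, with 12.9 CPM in XHT 2 above its 2.16 to 4.25 CPM in MOD, and Wt1 was highest in XHT 3, at 49.4 CPM. The part of cell make-up in these complement values was not tested.

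Other genes of the pathway, from a list of 29 of which 27 were in the table and 15 could be tested, gave 0 higher and 8 lower calls, with 12.4% and 16.1% of all genes higher and lower. Their median log2 fold change was -1.06, against -0.02 over all genes. At an unadjusted p under 0.05 edgeR had 1 higher, Csmd1, which DESeq2's Wald test also called higher.

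The lower genes named here were mostly receptors and recognition molecules. Itgb2, Itgam and Itgax, the chains of complement receptors 3 and 4 of leukocytes, had log2 fold changes of -2.11, -1.67 and -1.33 (edgeR adjusted p = 0.00988, 0.0117 and 0.0143). Itgb2 had 15.1, 17.8 and 9.66 CPM in XHT and 65.4, 71.4 and 47.5 CPM in MOD. Colec12, a scavenger collectin, and Calr, which encodes calreticulin, a C1q ligand and chaperone, fell by 1.497 and 1.06 on the log2 scale (edgeR adjusted p = 0.0148 and 0.0450). Susd4, a membrane inhibitor, fell by 3.51 but had 0.188 to 0.340 CPM in XHT and 1.75 to 4.48 CPM in MOD. Ptx3 fell by 4.99 ± 1.26 (edgeR adjusted p = 0.0294), and its log2 fold change was -2.76 without MOD 2. Without XHT 1 0 of the 8 lower calls held by edgeR, 3 held without XHT 3 and 4 each without MOD 1 or MOD 2. Over all genes those fits called 4, 288, 375 and 570 lower, against 2336 with all 6 libraries.

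Serping1, which encodes the C1 inhibitor, had 142, 275 and 199 CPM in XHT and 339.9, 354 and 263 CPM in MOD. XHT 2 overlapped MOD 3, and the log2 fold change of -0.64 ± 0.29 did not pass (edgeR adjusted p = 0.136). Mbl1 and Mbl2, the mannose-binding lectins made in the liver, had 0 counts in all 6 libraries, while the ficolin gene Fcna had 13.6 to 25.8 CPM in XHT and 18.9 to 21.4 CPM in MOD (log2 fold change -0.01, edgeR adjusted p = 0.988).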

How the data were processed

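RNA-seq libraries of rat myocardial tissue, 3 XHT and 3 MOD, were poly(A)-selected, built with a dUTP strand mark and with molecular identifiers, and sequenced in pairs, per the labels' protocols. The authors deposited 1 table that holds, for each gene, raw counts and FPKM by library, gene length in bases, and their own comparison. Tools named per the submitters' processing notes are DESeq2 1.16.1, featureCounts 1.5.0-p3, StringTie 1.3.3b and HISAT2 2.0.5. The sources used here do not give their settings, the genome build, or any use of strand and identifiers. The deposited FPKM equal counts over gene length and over DESeq2's size factor, so they were already scaled between libraries; they served only to order levels. The deposited group means are a signal scale of normalized counts and were not used. Per the file headers, the comparison holds the authors' log2 fold changes and p-values, which were used only for Clu and Masp1.

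Here, counts were fitted in R 4.3.3 with edgeR 4.0.16 (limma 3.58.1): genes were kept by filterByExpr with a minimum total of 15 and a minimum count of 10, libraries were scaled by TMM, and XHT over MOD was tested in a robust quasi-likelihood model with no covariate, adjusted by Benjamini-Hochberg over 14488 genes. CPM are TMM-normalised, and mean log2 CPM used a prior count of 2. The common biological coefficient of variation was 0.348. DESeq2 1.42.0 gave the Wald test alternative. The fit was tested on simulated data. No library pair was a duplicate, with a chi-square over degrees of freedom of at least 42.6. A count of 0 allows up to 3 counts; such limits cover counting error only. The library numbers were not used to pair the groups, since no label says that they do.

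The members and lists were chosen with earlier results of these data known. All 37 listed genes are accounted for: tested ones with values per library or ranges, called ones with fold change, SE and adjusted p, untested ones by counts; of the other pathway genes, called ones are named, except 1 that is not reported here. Promoter sequences are RefSeq's, build GRCr8. Alternatives were another scaling, no count filter, another test or fit, a looser threshold, no mitochondrial genome genes, the replicate block and each library left out; summing the C4 and the C2 and Cfb records, and the ratios between members, were added after seeing the data.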

Additional observations from a re-analysis of the deposited data

How the results depend on the processing

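The sign of every tested complement record was kept under all alternatives except for C6, C8g, Cr1l and Cd46, none of which was called: as log2 fold changes, with each library left out in turn C6 lay between -0.620 and 0.0676 (without MOD 2), C8g between -0.00398 (without XHT 3) and 0.644, and Cd46 between -0.595 and 0.0814 (without XHT 3), with 0.00363 without MOD 1. With scaling to total counts, C8g was -0.0345 and Cr1l -0.309. Scaling to total counts gave 925 higher and 4320 lower genes and 0 higher complement records, with the median of all genes at -0.42. DESeq2's Wald test gave 2718 higher genes, 7 higher complement records and 1 higher gene of the other pathway list, and an adjusted p under 0.10 gave 2892, 7 and 1. The C1q to macrophage difference was 0.49 or 1.32 with other denominators. The cause of these moves was not tested.

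With any 1 library left out, edgeR called between 4 and 3487 genes higher and between 4 and 3421 lower; the complement records called ranged between 0 and 6 higher and between 0 and 11 lower, and the other pathway genes between 0 and 1 higher and between 0 and 8 lower. Leaving out 1 library also leaves fewer samples to estimate the spread. With the replicate block, 6 complement records were higher and 7 lower: Masp1 and Clu were added and C7 was lost, and 2101 genes in all were higher and 2309 lower. Whether the numbers pair the libraries is not known: deviations of same-numbered libraries correlated at -0.067, 0.247 and 0.119 for numbers 1, 2 and 3, and not every library correlated best with its own number. Low counts limit Masp2, C8g, Cd46, Vsig4, the smaller records of C4a and C2 and the untested genes. They also limit C3ar1, a called record, which had 19, 47 and 5 counts in XHT 1, 2 and 3.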
